A study of Mus musculus with 20 samples.

Results

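In chromatin-associated RNA of mouse embryonic stem cells, 5578 stranded regions carried an m6A peak in both libraries of cells with a conditional knockout of Ythdc1 (cKO) and in none of the 8 other immunoprecipitated libraries of the series. The regions were chosen by the presence and absence of called peaks alone, after peaks of all 10 lists had been merged per strand wherever they overlapped by 1 bp. They made up 14.7% of the 37931 regions found in both cKO lists and 6.38% of the 87498 merged regions. Because the same lists chose the regions, what follows about their peaks in these libraries is description, without a test. The groups were Ythdc1 cKO, Mettl3 KO1 and Mettl3 KO2, with a Ythdc1 control and a Mettl3 control, each with 2 immunoprecipitated libraries. All were C57BL/6 embryonic stem cells grown in serum with LIF, CHIR99021 and PD0325901. RNA of the chromatin fraction was depleted of ribosomal RNA, fragmented, enriched with an m6A antibody kit and sequenced with strand information. How the conditional deletion was induced, whether KO1 and KO2 are single clones, and whether replicates are separate cultures is not given in the sources used here.

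N6-methyladenosine (m6A) is a methyl mark on adenosines of RNA, written in the nucleus mainly by the METTL3 and METTL14 methyltransferase on adenosines followed by a cytosine. YTHDC1 is the nuclear member of the YTH family of proteins that bind the mark. It is known for roles in splicing, export and the turnover of RNA on chromatin, and in mouse embryonic stem cells for a part in silencing retrotransposons. A peak in such an experiment needs both enough RNA and enough antibody enrichment, and the matching inputs were not analysed here. More RNA and more m6A per RNA therefore cannot be told apart at these regions, and neither can more cells of a type and more RNA per cell.

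Sequence was available for regions in annotated exons and at RefSeq promoters. The windows shown belong to the coding and non-coding exons with the highest enrichment (Ccdc184, Atxn1 and Gm16215), to Gpnmb and Scara5, whose peaks were found in the cKO lists only, and to the start of the non-coding RNA Gm52862 inside the densest cluster of the set. The last 3 were picked after their values had been seen. The exonic windows hold 101 nt centred on the summit of the higher cKO peak, from GENCODE M21 transcripts (GRCm38), 5′ to 3′ on the RNA strand. They lie at chr15:98168586-98168686 (plus strand) for Ccdc184, chr13:45566979-45567079 (minus) for Atxn1, chr3:144848031-144848131 (plus) for Gm16215, chr6:49047907-49048007 (plus) for Gpnmb and chr14:65730614-65730714 (plus) for Scara5. The Gm52862 window is the RefSeq promoter of GRCm38.p6 at chr6:47755016-47755315 (plus), 250 bases before the annotated start to 50 after it, and it lies wholly inside a cKO-only region. Capitals mark GGAC, the core of the consensus that METTL3 methylates.
Ccdc184: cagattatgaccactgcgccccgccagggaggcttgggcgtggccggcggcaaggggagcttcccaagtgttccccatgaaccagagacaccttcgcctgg
Atxn1: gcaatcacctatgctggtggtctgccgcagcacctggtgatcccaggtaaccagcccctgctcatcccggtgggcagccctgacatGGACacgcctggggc
Gm16215: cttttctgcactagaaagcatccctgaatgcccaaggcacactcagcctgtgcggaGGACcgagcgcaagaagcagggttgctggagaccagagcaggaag
Gpnmb: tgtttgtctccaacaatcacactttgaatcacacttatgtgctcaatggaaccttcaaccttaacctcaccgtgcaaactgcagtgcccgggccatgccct
Scara5: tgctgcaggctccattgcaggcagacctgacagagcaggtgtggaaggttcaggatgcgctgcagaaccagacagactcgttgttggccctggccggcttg
Gm52862: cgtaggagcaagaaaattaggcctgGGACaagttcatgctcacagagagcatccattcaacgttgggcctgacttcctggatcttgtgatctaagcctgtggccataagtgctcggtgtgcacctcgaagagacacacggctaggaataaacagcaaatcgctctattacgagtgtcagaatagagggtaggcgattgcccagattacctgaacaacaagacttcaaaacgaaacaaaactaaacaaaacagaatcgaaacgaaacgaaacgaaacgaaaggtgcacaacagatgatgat

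Atxn1 and Gm16215 each held 1 GGAC in these windows, and Ccdc184, Gpnmb and Scara5 held none. Across the exonic cKO-only regions, 244 of 536 windows held GGAC on the RNA strand, which is 45.5% with a 95% Wilson interval of 41.4% to 49.8%. Among the other exonic regions of both cKO lists the share was 51.1% (50.3% to 52.0%) of 13572 windows. In windows shifted by 1 kb in the same transcripts the shares were 30.8% (26.9% to 35.0%) beside cKO-only regions and 32.5% beside the others. The longer GGACT, which contains GGAC, was present in 14.7% (12% to 18%) of the cKO-only windows and 18.6% of the other windows. AGACT was present in 18.8% (15.8% to 22.4%) and 16.7%. The Gm52862 window held 1 GGAC on the gene's strand, as did 65.6% of the 32851 RefSeq promoter windows at least once (87.7% on either strand). The GGAC of Gm52862 lies before the annotated start, outside the annotated RNA. Intervals cover counting error only, and windows in the same transcript are not independent.

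The cKO had more regions of its own than any other group. Regions found in both libraries of a group and in no library of another group numbered 2041 in the Ythdc1 control, 1525 in Mettl3 KO1, 1806 in Mettl3 KO2 and 1515 in the Mettl3 control. These were 6.03%, 4.85%, 5.26% and 4.09% of the regions found in both libraries of the same group. The rule is not equal for the groups. A region found in both Mettl3 knockouts counts for neither, and a region found in both controls counts for neither control. The cKO has no such counterpart group, so part of its larger count may be built in. This limit also holds where positions, clusters and the X chromosome are compared between groups below. The cKO lists held 45468 and 45599 peaks, and the other lists held between 40959 and 46735. The Mettl3 knockouts had 40959 and 41004 (KO1) and 44496 and 42804 (KO2), beside 45292 and 46735 in the Mettl3 control. Many peaks were thus called without Mettl3, and whether a called peak depends on Mettl3 was not tested here. Depth, read from the most common background in the peak statistics, was highest in the cKO, at 20.03 and 19.27 reads on the plus strand, against 17.77 and 15.69 in the Ythdc1 control and 14.92 to 18.15 in the Mettl3 libraries. The part of depth in the larger cKO count was not tested. In a calculation added after the data were seen, the cKO peaks' own reads were scaled to the background of each other library. They passed the significance limits of all 8 lists (−log10 p of 4.39 to 4.48) at 5563 of the 5578 regions (99.7%). These peaks had been chosen as called in both cKO lists, and other regions were not scaled. The share therefore does not measure the part of depth. Peaks were also called in the Ythdc1 gene itself in every library, 7 and 6 in the cKO and 7 and 7 in the Ythdc1 control, so the peak lists do not check the deletion.

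**Figure D1:**
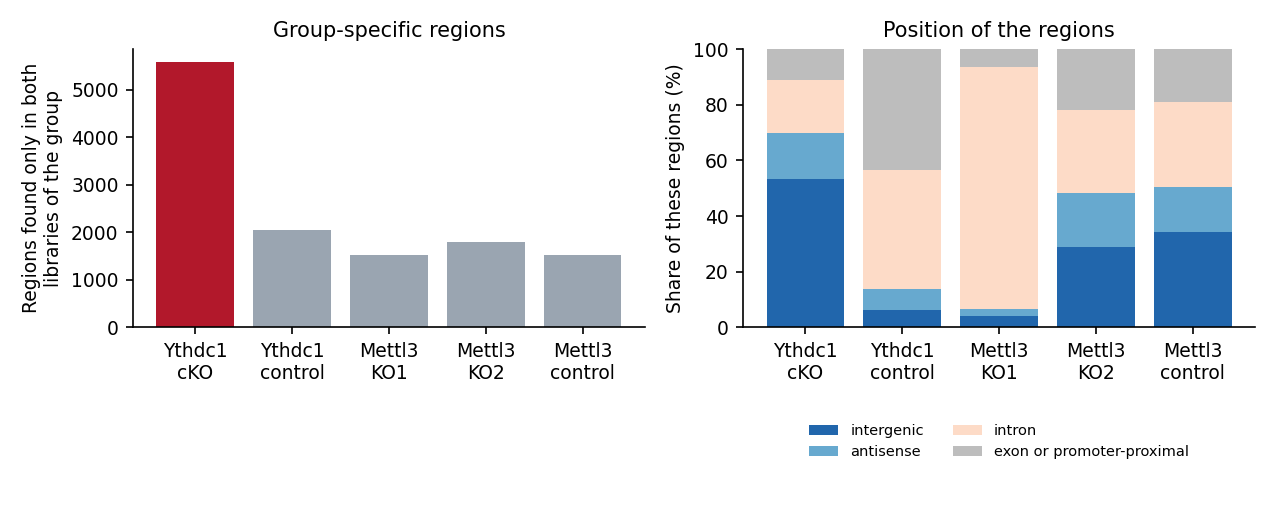
Left, number of regions found only in both libraries of a group (y axis) for Ythdc1 cKO, Ythdc1 control, Mettl3 KO1, Mettl3 KO2 and Mettl3 control. Right, their position as a share of each group's regions in percent. The cKO has 5578 such regions, 53.5% of them intergenic, and no other group exceeds 2041 or 34.3% intergenic.

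The enrichment at the cKO-only regions was moderate and close between the libraries. Fold enrichment over background, as the authors' peak caller gave it, had a median of 4.33 in cKO replicate 1 (quartiles 3.61 and 5.32) and 4.29 in replicate 2 (3.60 and 5.28). The other regions of both cKO lists had medians of 5.29 and 5.38. At 91.9% of the cKO-only regions in replicate 1 and 92.3% in replicate 2, the background was the most common one of the strand. There the fold compares reads with a level shared along the strand, and it does not measure enrichment over the RNA of the site. This share was not counted for the other regions. At the summits, a median of 89 reads (range 40 to 492) lay in replicate 1 and 86 reads (42 to 512) in replicate 2, recovered from the fold and p-value of each peak. Summits of the cKO peaks lay a median of 10 bp apart, and 80.6% were within 50 bp. The folds were within 1.5 times of each other at 95.8% of the regions, and their log2 values correlated with r = 0.78 across regions, a description over 5578 regions of 2 libraries. Peaks were shorter than elsewhere, with a median of 219 bp against 346 bp at the other cKO regions. In both cKO libraries, 2759 regions reached 4-fold, 582 reached 6-fold, 127 reached 8-fold and 32 reached 10-fold.

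**Figure D2:**
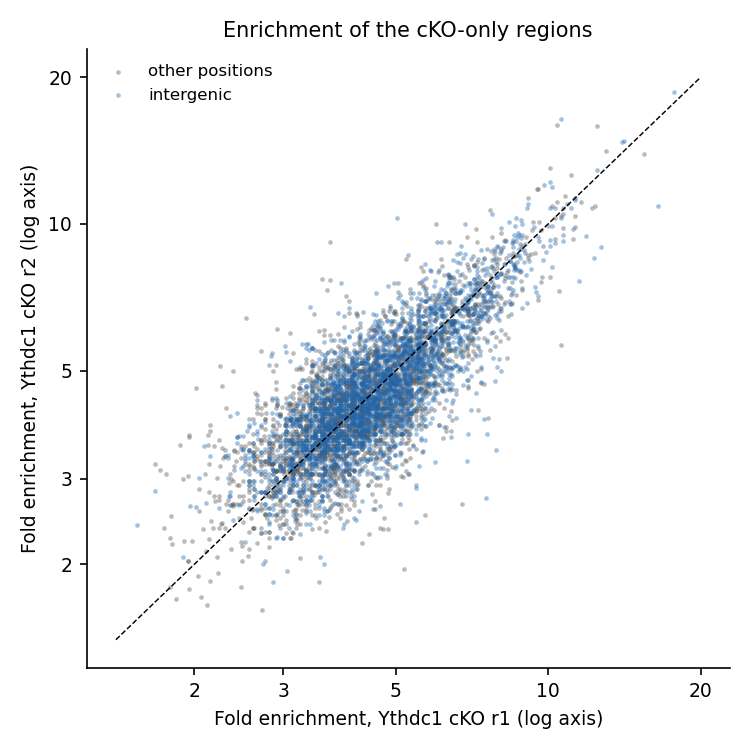
Fold enrichment of each cKO-only region in Ythdc1 cKO replicate 1 (x axis) and replicate 2 (y axis), both on log axes, with intergenic regions in blue, other positions in grey and equality dashed. The points follow the diagonal, around medians of 4.33 and 4.29, up to a region with folds of 17.7 and 18.7.

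Regions just inside and just outside the rule show what it keeps. The lowest were an intronic region of Fhit, a gene at a fragile site, with folds of 2.12 and 1.65, a coding region of Klf6, a zinc finger transcription factor, with 2.72 and 1.61, and an intergenic region on chromosome 18 with 1.54 and 2.41. Just outside, 1603 regions had a peak in both cKO lists and in exactly 1 other list, most often Mettl3 control replicate 2 (450 regions) and least often Mettl3 KO1 replicate 1 (41 regions). The highest of these lay in an intron of Gpc5, a heparan sulfate proteoglycan, with folds of 17.8 and 16.7 in the cKO and 3.00 in Ythdc1 control replicate 2. Another lay antisense to the imprinted gene Peg10, with 16.9 and 13.6 in the cKO and 3.84 in Mettl3 KO2 replicate 2. It was 0.897 kb from a cKO-only region with folds of 12.4 and 10.9 on the same strand. A region with a peak in 1 cKO list and no other list was found 2154 times in replicate 1 and 1977 times in replicate 2.

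More than any other position, the cKO-only regions lay outside annotated genes. Of the 5578, 2986 were intergenic, which is 53.5% (95% Wilson interval 52.2% to 54.8%), against 15.9% (15.5% to 16.3%) of the 32353 other regions of both cKO lists. A further 904 (16.2%) lay antisense to a gene, against 7.75%. Introns held 1066 (19.1%), against 32.4%. Coding exons held 267 (4.79%), against 24.2%, 3′ UTRs held 148 (2.65%), against 11.5%, and 5′ UTRs held 46 (0.825%), against 3.80%. Non-coding exons held 84 (1.51%), against 2.91%, and 77 (1.38%) were within 2 kb upstream of a transcription start, against 1.54%. Read the other way, 36.7% of all intergenic regions of both cKO lists were cKO-only, and 26.5% of the antisense, 9.23% of the intronic and 3.30% of the coding regions. The group-specific regions of the other groups were intergenic in 6.32% (Ythdc1 control), 3.87% (Mettl3 KO1), 28.7% (Mettl3 KO2) and 34.3% (Mettl3 control).

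**Figure D3:**
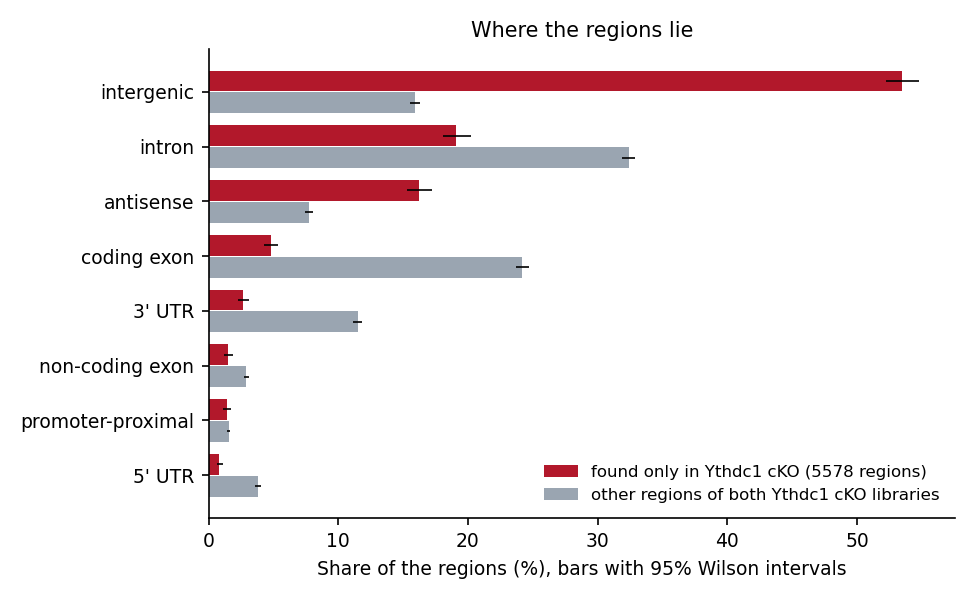
Share of regions in each position (x axis, percent, with 95% Wilson intervals) for the cKO-only regions (red) and the other regions of both cKO lists (grey). Intergenic positions take 53.5% of the cKO-only regions against 15.9% of the others, and coding exons take 4.79% against 24.2%.

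Overlap with a region on the other strand varied with position. In all, a region of any library overlapped on the opposite strand at 191 of the cKO-only regions (3.42%), against 10.8% of the other cKO regions. Among antisense regions the shares were 16.0% and 36.2%, and whether reads of the opposite gene took part was not tested. Among intergenic regions they were 0.134% and 1.26%, and among non-coding exons 14.3% and 13.5%. The plus strand held 3045 of the cKO-only regions and the minus strand 2533.

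Intergenic cKO-only regions lay a median of 106082 bp past the nearest gene end upstream on the same strand, against 44244 bp for the other intergenic regions of both cKO lists. Only 228 (7.64%) were within 10 kb of such an end, against 24.2%. Within 5 kb of a start on the other strand, leading away from it, lay 55 (1.84%), against 3.30%. Within the bounds of a RefSeq gene on the strand fell 113 (3.78%), against 6.61%. Whether GENCODE lacks these genes or gives them other bounds was not checked. Taking all positions, the nearest region of another library on the same strand was a median of 7207 bp away. No region of the other libraries lay within 10 kb of 2621 cKO-only regions (47.0%), nor within 50 kb of 1718 (30.8%). Part of this distance is built in, since the rule asks absence from those lists. It was not measured for the regions specific to other groups. RefSeq promoter windows were overlapped by 65 cKO-only regions (1.17%), against 6.60% of the others. Repeats were not annotated in the sources used here, so overlap with retrotransposons was not analysed.

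The regions were also grouped along the genome. Joined where they lay within 10 kb on 1 strand, the 5578 regions formed 3938 loci, of which 2973 held 1 region, 614 held 2 and 351 held at least 3. Without cKO replicate 1 there were 511 clusters of at least 3, and without cKO replicate 2 there were 535. The 351 clusters held 1377 regions (24.7%), and 213 of them were wholly intergenic. In 234 clusters no region of another library lay on the strand between the first and the last, and 336 had none on the opposite strand. Their median span was 5.68 kb and the longest was 37.8 kb. Joined in the same way, the group-specific regions gave 29 such clusters in the Ythdc1 control (5.00% of its regions), 6 in Mettl3 KO1 (1.18%), 25 in Mettl3 KO2 (5.37%) and 25 in the Mettl3 control (5.48%), with at most 8 regions in a cluster. Neighbouring regions may come from 1 transcript, and a group with more regions forms more clusters. Whether reads in clusters were shared among similar sequences elsewhere in the genome was not checked.

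The densest cluster lay on the plus strand of chromosome 6, at positions 47740345 to 47778175, between Ezh2, the catalytic subunit of Polycomb repressive complex 2, and Pdia4, a protein disulfide isomerase, both on the other strand. It held 23 regions, all intergenic in GENCODE, and overlaps the RefSeq non-coding genes Gm52861 and Gm52862. Median folds were 5.99 in replicate 1 and 6.45 in replicate 2, and 14 of the 23 regions had at least 5-fold in both. The strongest, at 47768091 to 47769960, had folds of 14.1 and 14.8 from 295 and 299 reads. The next, at 47765010 to 47765651, had 16.5 and 10.9. The region over the start of Gm52862, whose sequence is printed above, had 5.90 and 7.15 from 123 and 144 reads. The summit of this region lay at -147 bases from the annotated start, outside the annotated RNA. At 4 of the 23 the folds of the cKO libraries differed by over 1.5 times. A smaller cluster of 3 regions, which began 58.4 kb before the first of the 23, lay upstream on the same strand and held the strongest region of the whole set, at 47682764 to 47683027, with folds of 17.7 and 18.7 from 359 and 348 reads. Over a 105 kb window around both clusters, no peak was called on this strand in any of the 8 other libraries.

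**Figure D4:**
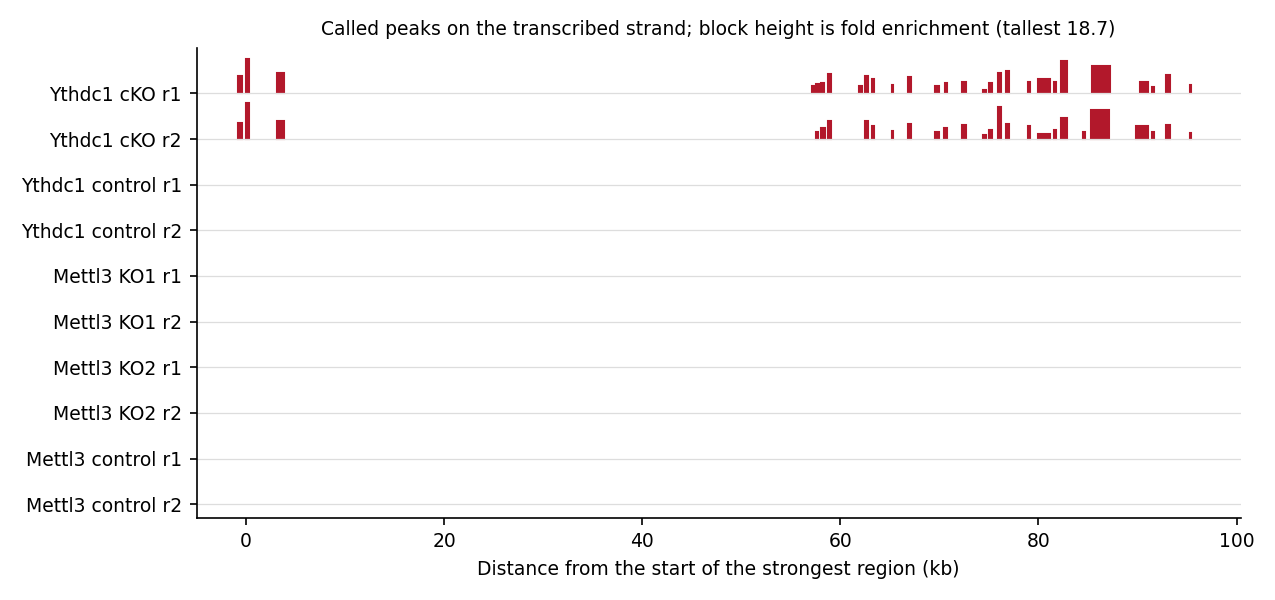
Peaks on the transcribed strand around the densest cluster, with distance from the start of the strongest region in kb (x axis), 1 row per library with the cKO libraries on top, and block height in proportion to fold enrichment. Both cKO rows carry the 26 shared regions of the 2 clusters, and the 8 other rows are empty.

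The other large clusters were mostly intergenic too. A cluster of 12 intergenic regions lay on the minus strand of chromosome 15 (33729141 to 33743113), with smaller folds of 2.81 to 6.68, and 11 lay on the plus strand of chromosome 1 (44485793 to 44520058), with 2.71 to 9.46. The smaller fold is the lower one of the cKO libraries. Another 11 lay on the minus strand of chromosome 18 (48193767 to 48210970), with 2.56 to 8.11 and no peak of another library among them. Clusters of 10 lay on chromosome 8 (3881520 to 3909118, minus), 8.65 kb past the end of the lectin gene Cd209b, and on the X chromosome (14570791 to 14591597, plus), where 4 regions of other libraries lay among them. Rgs20, described with the genes, held a cluster of 10 in its introns. Clusters of 9 lay on chromosome 18 (15987095 to 16007964, plus), chromosome 7 (12278222 to 12288211, minus) and chromosome 3 (45583967 to 45592783, plus).

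Other strong single regions lay in varied positions. An intergenic region on chromosome 1 (48673603 to 48674015, plus) had folds of 14 and 14.7 and lay 122 kb from any region of another library on its strand. Pde1c, a calcium- and calmodulin-dependent phosphodiesterase, had an intronic region with 13.0 and 14.1. Ccdc184, a coiled-coil protein gene, had the strongest exonic region (chromosome 15, 98167975 to 98169134), with 12.5 and 15.9 from 262 and 321 reads. Atxn1, which encodes the transcriptional co-repressor ataxin-1, had a coding region with 11.3 and 10.4. Regions also stood antisense to Clca3b, of the chloride channel accessory family, with 11.1 and 12.6, and in front of the olfactory receptor gene Olfr1196, with 11.6 and 11.1. Gm16215, a non-coding RNA gene antisense to Clca3b, had 9.60 and 10.1. Intergenic regions on chromosome 9 (120688062 to 120689202, plus) and chromosome 18 (59756532 to 59757208, plus) had 11.3 and 11.3, and 11.3 and 11.2. In 5′ UTRs the strongest regions were those of Magi2, a scaffold protein of cell junctions, with 9.99 and 9.92, and Tor1aip2, a membrane protein that activates torsins, with 8.18 and 9.22. In 3′ UTRs they were those of the zinc finger gene Zfp202, with 7.99 and 8.48, and Dsg3, a desmosomal cadherin, with 7.47 and 8.53. Some strong regions are uncertain, since their sequence may be present in more than 1 copy and reads may be shared, which was not checked. They lie in Gm26870 (15.5 and 13.9 in an intron, 9.76 and 9.01 in an exon), at Gm2855 (10.7 and 10.5) and on chromosome 14 at 42225639 to 42228670 (12.5 and 12.9). The last was 0.249 kb from a region with 16.1 and 16.0 in the cKO and 4.87 in Mettl3 control replicate 1.

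Within genes, the intronic cKO-only regions lay in long hosts more often than the other intronic cKO regions did. Of the 10478 genes with a region in both cKO lists, 1038 (9.91%) held a cKO-only region on their own strand. The share was 5.91% of genes under 10 kb and 6.24% of those of 10 to 50 kb. It was 12% from 50 to 200 kb, 34.2% from 200 to 500 kb and 60.9% (106 of 174) over 500 kb. Part of this order is built in, since longer genes had more regions that could qualify. Per region, 4.60% were cKO-only in genes under 10 kb and 22.0% in genes over 500 kb. The median host of an intronic cKO-only region was 207 kb long, against 91.6 kb for the other intronic cKO regions. Genes over 500 kb hosted 268 of the 1066 intronic cKO-only regions (25.1%), against 7.59% of the others. Of the 1611 regions in genes, 85.5% lay in protein-coding genes, against 94.2% of the others, and 195 (12.1%) lay in long non-coding or unclassified transcripts, against 4.18%.

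**Figure D5:**
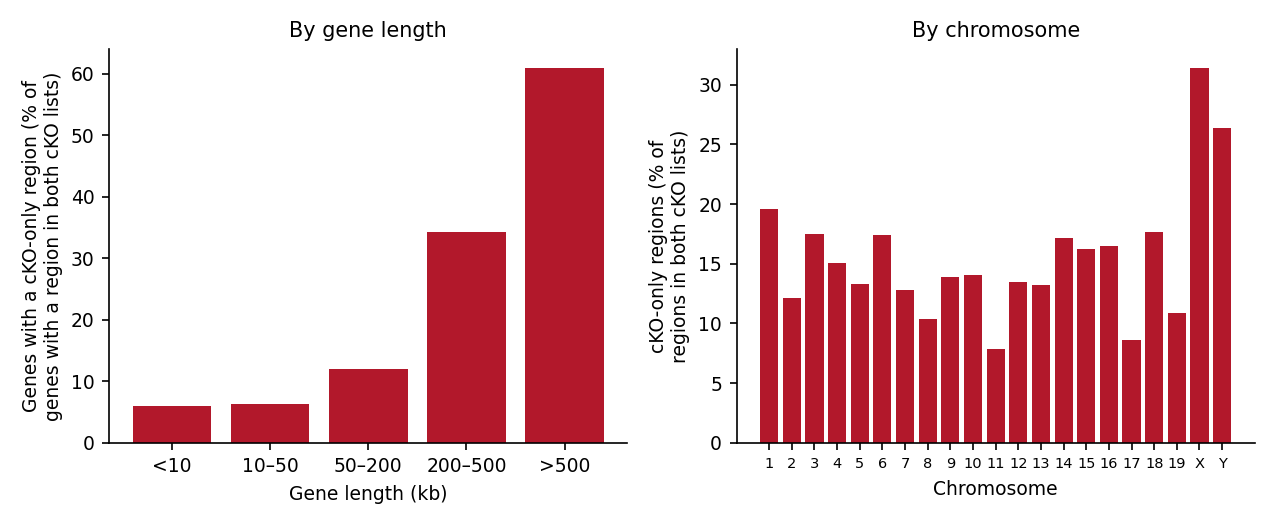
Left, genes that hold a cKO-only region as a share of the genes with a region in both cKO lists (y axis, percent), by gene length in kb. Right, cKO-only regions as a share of the regions of both cKO lists (y axis, percent), by chromosome. The share of genes is 5.91% under 10 kb and 60.9% over 500 kb, and the X chromosome has the highest share of regions, 31.4%.

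The chromosomes differed in how many of their cKO regions were cKO-only. On the X chromosome 473 of 1507 (31.4%) were, and on the Y chromosome 19 of 72 (26.4%). Sharing of reads among similar sequences was not checked for any chromosome. Among the autosomes the share went up to 19.6% on chromosome 1 and down to 7.85% on chromosome 11 and 8.61% on chromosome 17. The X chromosome stood first for intergenic regions too, with 337 of 707 (47.7%), and for intronic ones, with 62 of 352 (17.6%). It held 8.48% of the cKO-only regions, and 1.91%, 3.02%, 5.81% and 2.51% of the group-specific regions of the Ythdc1 control, Mettl3 KO1, Mettl3 KO2 and Mettl3 control.

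Among genes, Rgs20, a regulator of G protein signalling, held the most. Of its 26 regions in both cKO lists, 22 were cKO-only, all in introns of this 161 kb gene (chromosome 1, 4909576 to 5070285, minus). Its highest had folds of 9.35 and 10.1 from 182 and 189 reads, and 10 lay within 11.5 kb. Pdzrn4, a PDZ and RING finger protein gene, held 15 of 16, the highest with 9.13 and 11.3. The transcription factor gene Sox6 held 13 of 18, the highest with 8.28 and 7.95. Lsamp, a neuronal adhesion protein gene, and Tenm1, a teneurin gene, each held 10, led by 10.1 and 13.0 in a Lsamp intron and 8.95 and 8.85 in a Tenm1 coding exon. Fhit held 15 of 33, and its highest had 7.16 and 7.52. Gm42416, Gm37013 and Gm37388, with 13, 11 and 10, are overlapping gene models across the clustered protocadherins on chromosome 18. They share their regions, the highest with 6.66 and 6.61, and count as 1 locus.

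Of the 10478 genes with a region in both cKO lists, 1038 held a cKO-only region. In 272 of the 1038 genes (26.2%) no other library had any region on the gene's strand. A gene with a region in both cKO lists and in no other list holds a cKO-only region by the rule. The share is therefore partly built in, and the other groups were not counted in this way. Slc9a7, a sodium-proton exchanger of the Golgi on the X chromosome, led the 272 genes with 10 regions, all of the regions it had. Its highest, in a coding exon at the start of the gene, had folds of 4.86 and 5.39 from 94 and 121 reads. The nearest region of another library on the same strand was 324 kb away. Dock10 had 7 intronic regions, the highest with 11.2 and 9.33. Gab2, a signalling adaptor, had 6, the highest with 5.85 and 5.08. Nr2f2, which encodes the nuclear receptor COUP-TFII, had 4, all in exons, with folds of 5.98 to 7.57 in replicate 1 and 5.78 to 6.62 in replicate 2. Pcdh17, a protocadherin gene, had 4 exonic regions, with 4.57 to 7.70 and 4.74 to 6.96. Gpnmb, a transmembrane glycoprotein gene, and Scara5, a ferritin receptor gene, also had 4 each. Their coding regions, printed above, had 9.66 and 9.74 from 237 and 227 reads, and 10.3 and 9.32 from 216 and 188 reads. The genes of this group were named after their values had been seen. At the other end, 384 genes with a cKO-only region also had a region in all 10 libraries.

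The gene lists known for the biology of these cells and of m6A held 0 to 2 genes each with a cKO-only region, and no list was tested. None of the 21 pluripotency genes, 17 nuclear RNA decay genes and 9 genes of the 2-cell-like state with a region in both cKO lists held a cKO-only region, beside 9.91% of all genes. Of 19 genes for m6A writers, readers and erasers, 1 did, the demethylase gene Alkbh5, with folds of 4.80 and 4.93 in an intron. Of 33 chromatin regulators, 1 did, the histone methyltransferase gene Kmt2c, with 5.05 and 4.22 in an intron. Of 11 early lineage genes, 2 did (18.2%), both without a region in any other library. Gata4, a transcription factor of endoderm and heart, had 3.94 and 4.45 in its 5′ UTR, and the growth factor gene Fgf5 had 3.95 and 4.88 in its 3′ UTR. Of 18 immediate early genes, the phosphatase gene Dusp4 alone did, with 5.14 and 5.03 in its 5′ UTR. Of 22 chromatin-associated and imprinted non-coding RNAs, 2 did. Airn, the RNA that silences Igf2r on the paternal allele, held 5 of its 20 cKO regions, the highest with 4.52 and 5.08, and Tbx3os1 held 4 of 16, the highest with 6.22 and 7.84.

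Of 21 very long and fragile-site genes with a region in both cKO lists, 18 (85.7%) held 75 cKO-only regions, beside 60.9% of all genes over 500 kb. The shares are not matched for length, since the listed genes with such a region were 725 kb (Exoc4) to 2257 kb (Dmd) long. The list was also chosen with earlier results of these data known. After Lsamp and Magi2, the highest were Exoc4, an exocyst subunit, with 7.23 and 8.34, Fhit, and Ctnna3, an alpha-catenin, with 6.75 and 6.96. Pcdh15, a protocadherin of hair cells, had 6.52 and 5.52. Exoc4 held only 2 among 32 cKO regions, Ctnna3 held 6 among 10, and Pcdh15 held 7 among 13.

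The cells carried peaks in most genes that mark embryonic stem cells. Of 10 such markers, 8 had a region in each cKO library and 10 in each Ythdc1 control library, and Dppa5a and Lin28a had none in both cKO lists. Of 12 fibroblast markers, 6 had a region in each cKO library, 5 in each Ythdc1 control library and 9 in each Mettl3 control library, and none held a cKO-only region. Of 8 endoderm markers, 3 had a region in each cKO library and 2 and 3 in the Ythdc1 control libraries, with Gata4 the marker that held a cKO-only region. None of the 4 mesoderm markers had a region in the cKO or the Ythdc1 control. Of 4 neural markers, 3 had a region in each cKO and each Ythdc1 control library, and of 5 trophoblast markers, 2 did. A share of other cell types in the cKO and its part in the regions above was not tested.

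Regions that all libraries shared were compared by their distance to a cKO-only region. Of the regions with a peak in all 10 lists, 679 lay within 10 kb of a cKO-only region on the same strand and 15160 did not. The mean within-list percentile of fold enrichment of the nearby regions was above that of the rest by 15.38 and 14.94 points in the cKO libraries. It was above by 5.34 and 5.13 points in the Ythdc1 control libraries, 3.00 and 1.52 in Mettl3 KO1, 6.53 and 4.21 in Mettl3 KO2, and 7.22 and 7.45 in the Mettl3 control. The cKO libraries averaged 15.16 ± 0.31 points and the Ythdc1 control libraries 5.24 ± 0.15 points (SD, n = 2 each), 9.92 points apart. Counted over all shared regions of a gene that held a cKO-only region, the difference was 1.54 points. These values are a description with no test, since the same libraries chose the cKO-only regions and 2 against 2 are too few for a test. The lists also differ in length, so a percentile in one list does not measure a change from another. Treated in the same way, shared regions near the regions specific to the Ythdc1 control differed from the rest by -2.72 and -2.65 points in that control's own libraries. The values were -3.77 and -1.12 points in Mettl3 KO1 near its own regions, -2.98 and -3.38 in Mettl3 KO2, and 3.35 and 3.48 in the Mettl3 control. Relative to the mean of the other 8 libraries at the same regions, the differences were 10.11 points for the cKO, 5.67 for the Ythdc1 control, 4.25 for Mettl3 KO1, -0.77 for Mettl3 KO2 and 3.67 for the Mettl3 control.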

How the data were processed

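The 10 immunoprecipitated libraries were grouped by the labels' titles. The 10 input samples were not analysed here. The submitters' processing notes name MACS2, HISAT2 2.1.0, Trimmomatic 0.38, CASAVA and the build mm10. How MACS2 was run, and whether with the inputs, is not given in the sources used here. Each deposited list gives peaks of 1 library by strand. For every peak the authors deposited a display score, a fold enrichment (a ratio to background at the summit) and −log10 p and −log10 q values. No peak was shorter than 150 bp or had a −log10 q below 2. Folds were used only to describe and rank peaks within a list.

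With Python, numpy and pandas, the peaks of assembled chromosomes were merged per strand (1 bp overlap). A region was placed by the summit of its higher cKO peak, with GENCODE M21 (GRCm38), where exons (UTR 3′ before coding before UTR 5′ before non-coding) took precedence over introns, introns over antisense, and antisense over promoter-proximal positions. Reads at summits were solved from fold and p-value, and were whole within 0.002 on the −log10 scale for 99.96% of the regions. Depth limits which regions reach a list, so absence means that no peak was called. The planned permutation test of neighbouring shared regions is not reported, since the libraries tested also chose the regions. Merging and read recovery were tested on simulated data.

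The regions and gene lists were chosen with earlier results of these data known. Named were the 12 regions with the highest smaller fold, the 10 loci and 10 genes with the most regions, the 2 strongest regions per position, list genes (at most 6 by fold) and regions at the threshold. Genes without another region and some sequences were added after their values were seen. Alternatives covered merging, strand, significance, fold, which lists count and leaving out each library.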

Additional observations from a re-analysis of the deposited data

Results flagged for a closer look

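On contigs outside the assembled chromosomes, which the counts of the report leave out, 2 regions were found in both Ythdc1 cKO lists and in no other list. Both lay on the minus strand of the same unplaced contig, with folds of 8.18 and 11.5, and of 5.62 and 8.74, in cKO replicates 1 and 2. The lists held 26 and 35 peaks on such contigs in the cKO and 17 to 26 in the other libraries.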

How the results depend on the processing

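The number of cKO-only regions stayed within 1.5 times of 5578 under 18 of 20 alternatives. It was 2759 when both cKO peaks had to reach 4-fold, which removes regions by construction, and 10601 when absence was asked of the Ythdc1 control lists only. Leaving out 1 library at a time gave 5619 to 7894, where all 5578 remain by construction and the count can only rise. The 12 strongest regions were cKO-only under all 19 alternatives in which they were followed. Leaving out a library or asking absence of fewer lists cannot remove them, and their values lie far above the fold and significance limits. Only joining nearby peaks and merging without regard to strand could have removed them. The intergenic share of 53.5% was 55.3% with peaks merged without regard to strand and 49.3% to 50.7% with a cKO library left out. The 351 clusters numbered 311 at 5 kb and 381 at 20 kb, and 511 to 535 without a cKO library. The alternatives added after seeing the data were all contigs (5580 regions) and scaling to the depth of each other list (5563).

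The difference in rank near cKO-only regions was 9.92 points, between 9.70 and 10.14 with 1 library left out, 11.88 at 5 kb, 7.29 at 20 kb, 14.91 with the percentile of −log10 p, and 1.54 for regions of the same gene. The cause of the last was not tested. Paired by replicate number, the mean difference is the same 9.92 points by arithmetic, so pairing could not have changed it. Same-numbered cKO and control libraries did not deviate together (correlation 0.00 over 15839 shared regions), and the labels give no shared batch. Peak lists without input or read totals limit these results to called peaks.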
